A study of Mus musculus with 5 samples.

Results

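The Col15a1 and Smoc2 fibroblasts were a small stromal population of the mouse mammary gland, in which the chemokine gene Cxcl14 and the type IV collagen genes Col4a1 and Col4a2 stood higher than in the other fibroblast classes, and the lipase gene Lpl higher than in most of them. They made up 258 of 6276 fibroblast barcodes (4.11%) and 258 of all 14344 barcodes (1.80%) in 5 single-cell RNA libraries. A barcode was taken as a fibroblast where Col1a1, Col1a2, Col3a1 and Dcn together reached 50 per 10000 unique molecular identifiers (UMIs, one per captured RNA molecule), Epcam and Krt18 together stayed below 5 per 10000, Ptprc was at 0 and mitochondrial UMIs were at most 10%. Raw UMIs were then summed for S1 (Pi16, Anxa3 and Efhd1), S2 (Col15a1, Smoc2 and Vtn), S3 (Inmt, Fgl2 and Gdf10) and S4 (Spon1, Tnc and Crabp1). Members had an S2 sum of at least 3 and at least 2 times each of the other sums, and S1, S3 and S4 fibroblasts were assigned by the same rule. The members were therefore selected on measured values, and their levels of the S2 genes are given as a description.

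The libraries came from female BALB/cj mice, 30 weeks old, all ovariectomized at 9 weeks as a model of surgical menopause and treated for 1 week from 20 weeks after surgery. OVX mice received DMSO vehicle, OVX_E2 mice 17β-estradiol at 1 µg per animal, and OVX_E2_P4 mice the same estradiol with progesterone at 0.1 mg per animal, by daily intraperitoneal injection. OVX_E2_PBDE and OVX_E2_P4_PBDE mice had these hormones and, in food, 3 polybrominated diphenyl ethers (PBDEs, flame retardants with endocrine activity), namely BDE-47 at 7.1, BDE-100 at 0.4 and BDE-153 at 0.9 mg/kg, and all other mice ate matched food with DMSO. Each group was 1 library of collagenase-dissociated 4th mammary gland, freed of the lymph node and of dead cells but not sorted by cell type. The paper's methods give the size of each treatment group but, like the sample labels, not the number of mice in each library. A treatment therefore cannot be told apart from its library, and no test between groups was possible.

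Fibroblasts lay down the collagens and proteoglycans of connective tissue and send growth factors and chemokines to the epithelium, vessels and immune cells. Fibroblasts of many tissues fall into an adventitial type with Pi16 and Dpp4, found around vessels and in fascia, and a parenchymal type with Col15a1, known for basement membrane genes. In the mammary gland the stroma is largely a fat pad, which also holds fibroblasts able to become adipocytes, and lipoprotein lipase releases fatty acids for uptake by such cells.

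Col15a1, which encodes the chain of type XV collagen at the basement membrane zone, lies at chr4:47208161-47313167 on the plus strand of GRCm38 and has 40 exons in its longest coding transcript. Smoc2, a secreted calcium-binding matrix protein, lies at chr17:14279506-14404790 (plus strand, 13 exons), and Vtn, the adhesive glycoprotein vitronectin, at chr11:78499091-78502324 (plus strand, 8 exons). The rule did not use Cxcl14, a chemokine gene at chr13:56288643-56296551 (minus strand, 4 exons), or Lpl, lipoprotein lipase, at chr8:68880491-68907448 (plus strand, 10 exons). The 250 bases before the RefSeq starts of Cxcl14 (chr13:56296552-56296801, minus strand) and Col15a1 (chr4:47207762-47208011, plus strand) are shown because these genes lead and name the population, and capitals mark GCGTG, the core bound by the dioxin receptor AhR.
Cxcl14: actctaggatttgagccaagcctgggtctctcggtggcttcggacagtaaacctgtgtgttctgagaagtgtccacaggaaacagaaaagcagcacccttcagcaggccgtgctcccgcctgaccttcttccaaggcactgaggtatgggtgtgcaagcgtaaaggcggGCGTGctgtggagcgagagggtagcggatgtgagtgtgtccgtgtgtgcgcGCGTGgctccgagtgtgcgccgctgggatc
Col15a1: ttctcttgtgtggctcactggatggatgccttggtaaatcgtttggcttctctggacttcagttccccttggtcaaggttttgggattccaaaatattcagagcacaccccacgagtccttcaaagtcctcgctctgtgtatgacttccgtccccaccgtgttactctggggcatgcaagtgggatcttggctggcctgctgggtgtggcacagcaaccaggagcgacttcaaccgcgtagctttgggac
The Cxcl14 window held 2 matches to GCGTG and the Col15a1 window none, on either strand. GCGTG was present in 28.2% of 32851 RefSeq promoter windows of the same length. Neither window held TATAAA (12.4% of windows), CCAAT (33.8%), the estrogen response element GGTCANNNTGACC (0.0639%) or the direct repeat AGGTCANAGGTCA (0.0335%), and such a match or its absence is only a description of the letters.

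OVX had 154 members, OVX_E2 had 26, OVX_E2_PBDE had 35, OVX_E2_P4 had 33 and OVX_E2_P4_PBDE had 10, and values for 5 libraries are listed below in this order. OVX thus supplied 59.7% of them, and every value of OVX_E2_P4_PBDE rests on 10 barcodes. Of the fibroblast barcodes in each library they were 6.26% (exact 95% interval 5.33 to 7.29) for OVX, 3.25% (2.14 to 4.73) for OVX_E2, 1.95% (1.36 to 2.70) for OVX_E2_PBDE, 5.96% (4.14 to 8.26) for OVX_E2_P4 and 1.50% (0.723 to 2.75) for OVX_E2_P4_PBDE. The share was highest in OVX and OVX_E2_P4, whose intervals overlapped, and lowest in both PBDE libraries, and the OVX interval did not overlap those of OVX_E2 and the PBDE libraries. All intervals given here cover counting error only, and the same order was seen where every barcode was thinned to 3000 UMIs before the sums were made, except that OVX_E2_P4_PBDE (1.80%) then stood above OVX_E2_PBDE (1.67%). The thinned share was 6.58% for OVX, 2.63% for OVX_E2 and 5.05% for OVX_E2_P4. Thinning also exchanged barcodes, and 137 of 154, 13 of 26, 16 of 35, 21 of 33 and 8 of 10 members were still members after it. Ratios below with members chosen at 3000 UMIs per barcode thus rest partly on other barcodes.

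The limit on Epcam and Krt18 acted unevenly on these shares. It removed 3.22% of otherwise passing barcodes from OVX, 16.7% from OVX_E2, 8.97% from OVX_E2_PBDE, 41.9% from OVX_E2_P4 and 26.7% from OVX_E2_P4_PBDE. Among those removed, 3, 1, 2, 35 and 6 barcodes in the same order would have been members, so that OVX_E2_P4 would have held 68 in place of 33. Without the limit the shares of the then larger fibroblast sets were 6.17%, 2.82%, 1.88%, 7.13% and 1.76%, which put OVX_E2_P4 above OVX.

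**Figure D1:**
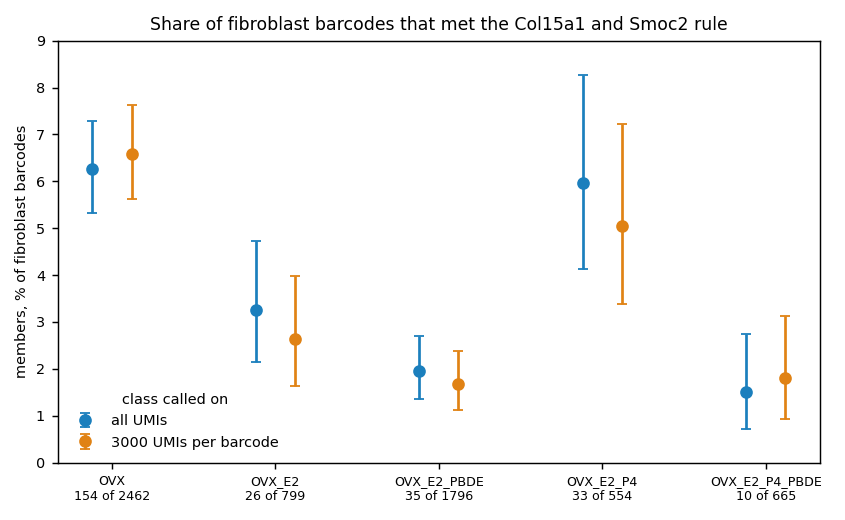
Share of fibroblast barcodes that were members in each library, in percent, with raw sums and after thinning to 3000 UMIs; bars are exact 95% binomial intervals and cover counting error only. OVX (6.26%) and OVX_E2_P4 (5.96%) stand highest and OVX_E2_P4_PBDE (1.50%) lowest by raw sums.

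The carried markers differed between libraries. Of the OVX members, 98.7% had a UMI of Smoc2, 91.6% of Col15a1 and 53.2% of Vtn. For OVX_E2 these shares were 57.7%, 96.2% and 42.3%, for OVX_E2_PBDE 65.7%, 100% and 14.3%, for OVX_E2_P4 72.7%, 97.0% and 15.2%, and for OVX_E2_P4_PBDE 70%, 80% and 30%. Barcodes that qualified on Col15a1 alone numbered 2 of 154 in OVX but 9 of 26, 11 of 35, 9 of 33 and 3 of 10 in the other libraries in that order. The label with Smoc2 therefore described nearly all OVX members and about 58 to 73% of the others. The median S2 sum was 9, 6.5, 7, 7 and 4 UMIs. Just inside the threshold, 7, 1, 1, 2 and 1 members had a sum of exactly 3, and just outside it 4, 3, 1, 3 and 3 barcodes with a sum of 2 met the other conditions. A further 107, 26, 52, 37 and 18 barcodes had a sum of 3 or more that was 1 to 2 times the next class. The members are thus a range cut from these sums, and whether they form a cluster of their own was not tested.

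Members were somewhat shallower than S1 fibroblasts in every library. Their median was 4305.5 UMIs and 1641.5 genes for OVX, 6274 and 2054 for OVX_E2, 6317 and 1957 for OVX_E2_PBDE, 5118 and 1797 for OVX_E2_P4, and 4209.5 and 1544 for OVX_E2_P4_PBDE, against 5746.5, 6721, 7222.5, 5813 and 4252 UMIs in S1. Summed over members the libraries held 685326, 182978, 229802, 205150 and 42646 UMIs, and levels below are counts per 1000000 UMIs of these sums (CPM). Only 1 member in OVX_E2 and 1 in OVX_E2_P4 exceeded 2 times the median UMIs of its library's fibroblasts. Across the libraries 80 barcode sequences occurred more than once, 1 of them in a member, and none was a member in 2 libraries.

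The S2 genes themselves had a different course across libraries. Col15a1 stood at 679 CPM for OVX, 607 for OVX_E2, 766 for OVX_E2_PBDE, 843 for OVX_E2_P4 and 516 for OVX_E2_P4_PBDE, and its exact Poisson intervals overlapped between OVX (618 to 743), OVX_E2 (499 to 731) and OVX_E2_P4_PBDE (323 to 781). Smoc2 stood at 1396 CPM in OVX (1309 to 1488) and at 372, 387, 380 and 352 in the others in that order. Vtn was at 289, 137, 39.2, 48.7 and 141 CPM. Among members the Smoc2 level was highest in OVX, with the 4 hormone-treated libraries within one another's intervals. Vtn was lowest in OVX_E2_PBDE and OVX_E2_P4, although the OVX_E2_P4_PBDE interval (51.6 to 306) reached both. Since these genes chose the cells, their levels and intervals in members are shaped by the rule. They are a description, and no ratio or difference between libraries is drawn from them.

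After thinning to 3000 UMIs, 84.4% of OVX members had a Col15a1 UMI and 97.4% a Smoc2 UMI. In epithelial barcodes, which should lack both, the thinned shares were 5.30% for Col15a1 and 5.92% for Smoc2 in OVX. They were 1.42 to 3.37% and 0.702 to 1.64% in the other libraries, and whether this was free RNA was not tested.

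Cxcl14, which was outside the rule, was the gene with the largest least ratio over other fibroblasts. It reached 3336 CPM for OVX members, 661 for OVX_E2, 574 for OVX_E2_PBDE, 580 for OVX_E2_P4 and 727 for OVX_E2_P4_PBDE, against 251, 67.1, 39.6, 49.6 and 37.3 in the summed S1, S3 and S4 fibroblasts. Members exceeded these fibroblasts 13.3-fold, 9.90-fold, 14.6-fold, 11.7-fold and 19.9-fold. OVX was high and the hormone-treated libraries were close to one another in members. After thinning, a Cxcl14 UMI was found in 90.3% of OVX members and 50%, 40%, 60.6% and 50% of the others, beside 24.6%, 4.70%, 4.63%, 8.22% and 5.36% of epithelial barcodes. Per cell the OVX median was 26.5 per 10000 UMIs, with a range from 0 to 163, and the medians elsewhere were 2.69, 1.42, 2.02 and 1.18.

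Lpl, the lipase that frees fatty acids from lipoproteins, was among the most abundant genes described here. Its level in members was 5936 CPM for OVX, 3782 for OVX_E2, 3394 for OVX_E2_PBDE, 2886 for OVX_E2_P4 and 2298 for OVX_E2_P4_PBDE. In S3 fibroblasts it was 2905, 2449, 2095, 2327 and 1638 CPM, in S1 539, 920, 640, 686 and 584, and in S4 800, 1511, 1032, 706 and 581. Members were highest and S3 second in every library, and the interval of members in OVX_E2_P4_PBDE (1866 to 2801) did not reach that of S3 (1479 to 1809). That value leaned on 1 barcode of 4331 UMIs with 34 of the 98 Lpl UMIs, and without it Lpl was at 1670 CPM (1286 to 2133) in members, level with S3.

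**Figure D2:**
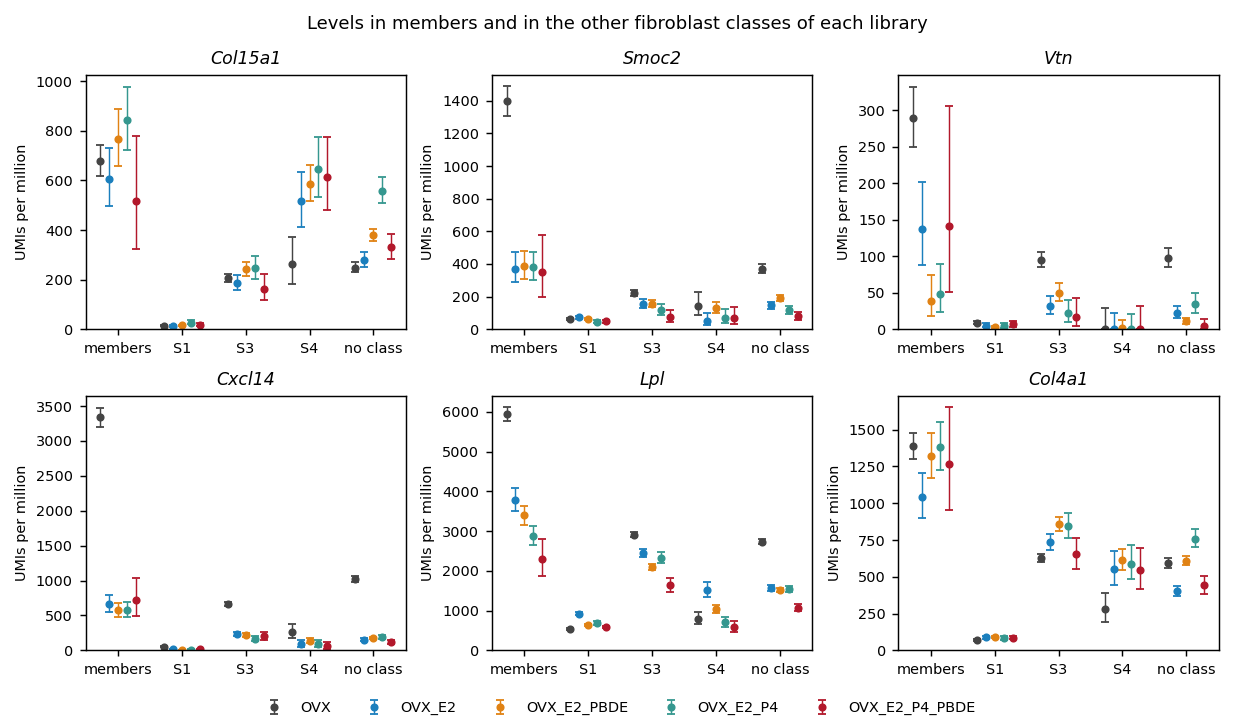
Levels of 6 genes in CPM, on linear axes, in members, in S1, S3 and S4 fibroblasts and in fibroblasts of no class of each library; bars show exact 95% Poisson intervals. Cxcl14 is highest in members of every library and stands at 3336 in OVX members against 574 to 727 in the others.

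Members were then set beside S1, S3 and S4 fibroblasts of their own library over 4139 genes. The comparison uses the cells on which members were chosen, so it is a description with no test. UMIs of S1, S3 and S4 were summed, and S1 held most of them in every library (in OVX 6755807, beside 3319213 in S3 and 125077 in S4). The ratios therefore mostly set members against S1, and S3 can stand nearer to members, as it did for Lpl. Ratios over S3 or S4 alone are not given for the genes below. At least 2-fold higher levels in 5 of 5 libraries were found for 32 genes (0.773%) and at least 2-fold lower levels for 66 (1.59%). With TMM scaling, which set members 0.22 to 0.74 log2 units lower against the other fibroblasts, these counts were 14 and 137. Both counts were larger when a library was left out, most so without OVX_E2_P4_PBDE, as given in the last section. Such counts cannot fall, since the fold and the minimum of UMIs must then be met in fewer libraries. The gene groups below came from lists chosen with earlier results of these data known, and the median log2 ratio of all kept genes was 0.17.

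Of 11 kept basement membrane genes 3 were past 2-fold higher in all libraries and none was lower, with a median log2 ratio of 0.79. Col4a1 and Col4a2, the chains of the main type IV collagen, were 4.29 to 7.88-fold and 4.25 to 7.95-fold higher, with Col4a1 at 1389, 1044, 1319, 1384 and 1266 CPM. The level of Col4a1 differed little between libraries. In OVX, fibroblasts outside the population with an S2 sum of 10 or more came near it, as given below. Col18a1, the type XVIII collagen of vessels and epithelia, was 2.73 to 7.71-fold higher at 37.9 CPM in OVX and 164 to 187 elsewhere.

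Fibrillar and associated matrix genes were mixed. Of 24 kept, 6 were higher, namely Col5a3, Col6a2, Col6a3, Lum, Bgn and Lox, and 1, Col14a1, was lower, with a median log2 ratio of 0.61. Col5a3, a minor chain of type V collagen, was 3.71 to 6.29-fold higher, and Col6a2, a chain of the type VI collagen microfibril, 2.88 to 4.82-fold. Outside the lists, Fbln7, a fibulin that binds cells, was 3.78 to 7.23-fold higher, and Sparcl1, a secreted relative of SPARC, 3.65 to 5.24-fold. Mme, the membrane peptidase neprilysin, was 3.19 to 7.38-fold higher, and the scaffold gene Slc9a3r2 and the septin gene Sept11 at least 3.34-fold and 3.01-fold.

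Lipid genes leaned the same way with few past the limit. Of 15 kept preadipocyte and lipid genes, Lpl (2.82 to 4.52-fold) and Angptl4, a secreted inhibitor of that lipase (2.64 to 4.56-fold), were higher, none was lower, and the median log2 ratio was 0.80. Plpp1, a lipid phosphate phosphatase, was 2.53 to 4.16-fold higher. Pparg, the regulator of adipocyte formation, was sparse, with 16, 0, 3, 5 and 4 UMIs in members of the 5 libraries. The adipocyte markers Adipoq, Cidec, Cfd, Adrb3 and Lep were at 0 in members of all 5 libraries.

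The adventitial-type list lay on the other side. None of its 14 kept genes was higher and 8 were lower, namely Dpp4, Cd55, Sema3c, Ly6c1, Has1, Creb5, Opcml and Akr1c18, with a median log2 ratio of -1.73. Dpp4, a surface peptidase of adventitial fibroblasts, had 25, 4, 13, 2 and 0 UMIs in members, and Sema3c, a guidance factor, 32, 12, 9, 14 and 0. Akr1c18, an enzyme that inactivates progesterone, had 2, 2, 1, 2 and 0 UMIs. S1 fibroblasts, the largest class, are chosen by markers of the same type, so these genes were partly fixed by the grouping. Other low genes were Ugdh, which makes a precursor of hyaluronan, at 0.08 to 0.21 of the level in other fibroblasts, Pcolce2, an enhancer of procollagen processing, at 0.11 to 0.23, and Sfrp4, a secreted Wnt antagonist, at 0.02 to 0.07. Aldh1a3, Smpd3, Car8, Tmem100, Ifi27l2a, Cadm3, Fndc1, Sbsn and Il18 completed the 15 lowest genes.

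Lists of secreted factors had few genes past the limit. Among 21 chemokine and complement genes Cxcl14 was higher and Cxcl2, Cxcl13 and C3 were lower, with a median log2 ratio below that of all genes. Igfbp7 was the higher IGF binding protein (2.54 to 4.05-fold, 2302 to 3073 CPM) and Igfbp5 the lower, of 5 kept. Bmp2 and Tgfb2 were lower among 14 growth factor and Wnt or BMP genes. No gene passed in all libraries among 20 proteases and inhibitors, 6 steroid receptor and estrogen response genes or 10 AhR and xenobiotic genes. Of the 7 Inmt-type genes kept, Sfrp4 was lower although the median log2 ratio was 0.98. Errfi1 of 10 progesterone and glucocorticoid response genes and Ifi27l2a of 8 interferon genes were lower, and Ier2 of 20 dissociation genes was higher.

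**Figure D3:**
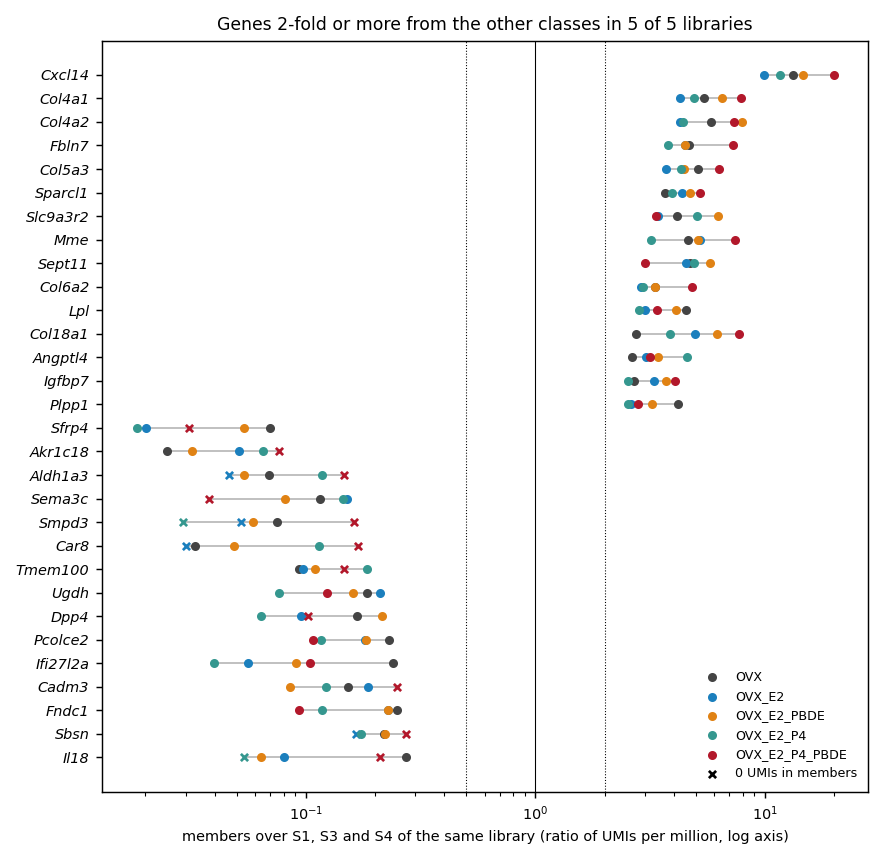
Ratio of members to S1, S3 and S4 fibroblasts of the same library, on a log axis, for the 15 genes with the largest least ratio and the 15 with the smallest greatest ratio; each point is 1 library and a cross marks a gene with 0 UMIs in members. Cxcl14 leads with ratios of 9.90 to 19.9, and Sfrp4 is lowest at 0.02 to 0.07.

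The members were also placed along the S2 sum. In OVX fibroblasts outside the population Cxcl14 stood at 69.9 CPM with an S2 sum of 0, 227 with 1 to 2, 669 with 3 to 5, 1889 with 6 to 9 and 3366 with 10 or more. Within members it was 3200, 2794 and 3763 CPM over the last 3 of these ranges. Lpl went from 688 through 1409, 3078 and 4300 to 5368 CPM outside and stood at 5415, 6077 and 6031 within. In OVX both genes thus increased with the S2 sum among barcodes that missed the rule. Within members, whose other class sums were low by choice, Cxcl14 was higher at a sum of 10 or more (3557 to 3978) than at 6 to 9 (2582 to 3018). Outside the population Cxcl14 also increased with the S2 sum in every hormone-treated library. Between sums of 0 and of 10 or more it went from 9.79 to 581 CPM for OVX_E2 and from 9.05 to 366 for OVX_E2_PBDE. For OVX_E2_P4 it went from 9.02 to 299 CPM, and for OVX_E2_P4_PBDE from 19.3 to 280, the last from 2 barcodes. Over the last 3 ranges Cxcl14 within members was 367, 230 and 1345 CPM for OVX_E2, 339, 621 and 739 for OVX_E2_PBDE and 291, 463 and 1076 for OVX_E2_P4. It was thus highest at a sum of 10 or more in each, as in OVX. In OVX_E2_PBDE the intervals at 6 to 9 (483 to 786) and at 10 or more (532 to 998) overlapped. In OVX_E2 the value at 10 or more included 1 barcode of 14616 UMIs with basal keratins, described below, and was 787 CPM (563 to 1072) without it. Lpl outside the population did not keep increasing in any hormone-treated library. Over the last 3 ranges it was 1920, 2364 and 2254 CPM for OVX_E2, 1572, 1794 and 1758 for OVX_E2_PBDE, 1792, 1800 and 1031 for OVX_E2_P4, and 946, 1079 and 187 for OVX_E2_P4_PBDE, the last from 2 barcodes. Col4a1 in OVX went from 104 through 285, 634 and 1051 to 1155 CPM outside and stood at 1563, 1416 and 1306 within. At a sum of 10 or more its intervals outside (1038 to 1282) and within (1186 to 1435) overlapped in OVX. They also overlapped there in OVX_E2 and OVX_E2_P4, but in OVX_E2_PBDE members were higher, at 1794 CPM against 781.

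Within the population, barcodes with Smoc2 or Vtn and barcodes with Col15a1 alone differed in genes that the rule did not use. Postn, the matrix protein periostin, was at 1565, 2033, 1662 and 382 CPM in carriers of Smoc2 or Vtn in OVX_E2, OVX_E2_PBDE, OVX_E2_P4 and OVX_E2_P4_PBDE, and at 6902, 4743, 6488 and 4631 in the Col15a1-only barcodes. S4 fibroblasts of these libraries had 4456, 7330, 8161 and 3840. Mfap4, a microfibril protein, was at 34.2, 279, 130 and 0 CPM in carriers, 878, 353, 764 and 72.4 in Col15a1-only barcodes and 1435, 1535, 1782 and 936 in S4. Fn1, fibronectin, was at 411, 817, 1076 and 243 CPM in carriers and 2694, 2498, 3237 and 3473 in Col15a1-only barcodes. Postn and Fn1 were higher in the Col15a1-only barcodes of all 4 hormone-treated libraries, where those barcodes numbered 9, 11, 9 and 3. Mfap4 was higher in OVX_E2 and OVX_E2_P4, its intervals overlapped in OVX_E2_PBDE, and in OVX_E2_P4_PBDE it rested on 1 UMI against 0.

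The leading genes of the population had the opposite order in 3 of these libraries. Cxcl14 was at 949, 817, 787 and 694 CPM in carriers and at 151, 114, 150 and 796 in Col15a1-only barcodes, so that OVX_E2_P4_PBDE, with 3 such barcodes and all 11 of their UMIs in the barcode of 4331 UMIs, was the exception. Lpl was at 4747, 3880, 3778 and 2012 CPM in carriers and 2074, 2473, 1034 and 2895 in the others, with the same exception. That exception rested on the same barcode, which held 34 Lpl UMIs. Of the 64 Lpl UMIs left in OVX_E2_P4_PBDE members without it, 58 were in carriers. Col4a1 was higher in carriers of all 4, at 1206, 1448, 1539 and 1492 CPM against 757, 1072, 1064 and 796. OVX had only 2 Col15a1-only members, and its 152 carriers stood at 3361 CPM for Cxcl14 and 661 for Postn. The part of Col15a1-only barcodes thus differed between OVX and OVX_E2, and in the comparison of these libraries ratios among carriers are given beside the named genes, while counts over gene lists are for all members.

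**Figure D4:**
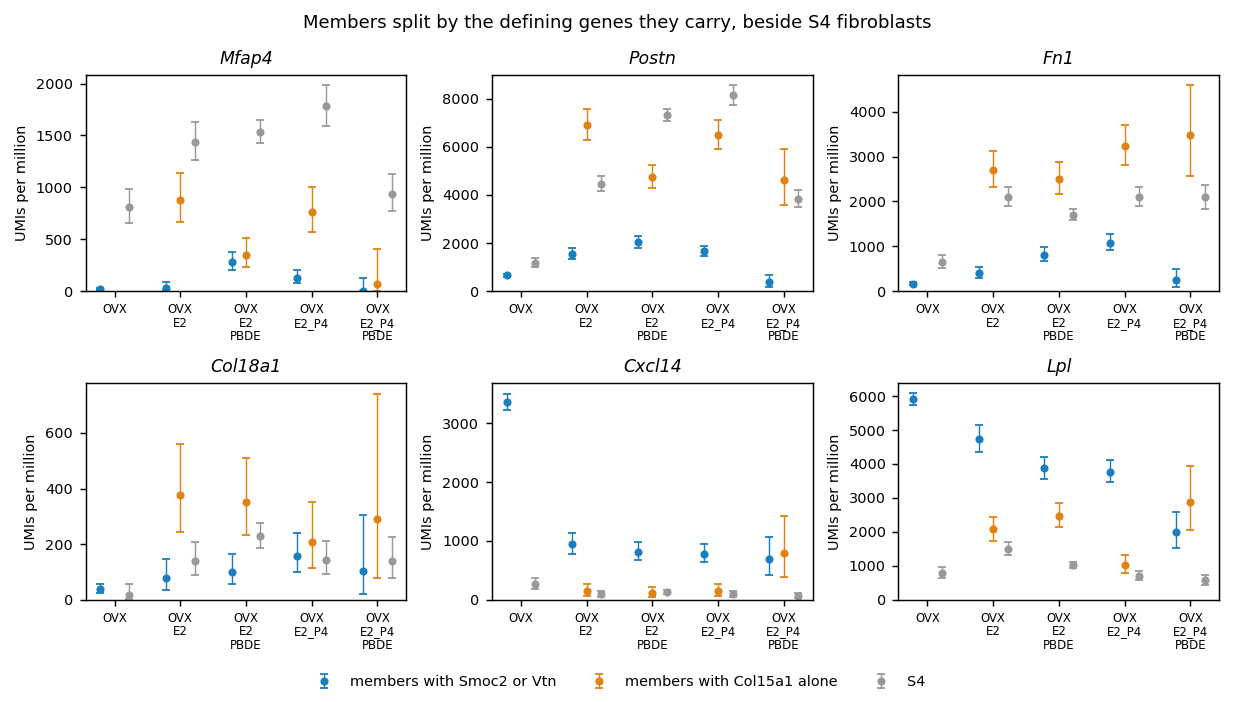
Levels in CPM, on linear axes, of members that carried Smoc2 or Vtn, members with Col15a1 alone and S4 fibroblasts in each library, with exact 95% Poisson intervals. Postn in Col15a1-only members (4631 to 6902 in the hormone-treated libraries) stands above carriers (382 to 2033), and the 2 Col15a1-only members of OVX are not drawn.

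Estradiol was compared with vehicle over 2176 genes with at least 50 UMIs in the 2 sets of members, with 1 UMI added to each sum. In OVX_E2 80 genes (3.68%) were at least 2-fold higher and 160 (7.35%) at least 2-fold lower, and among carriers of Smoc2 or Vtn 65 and 129 were. TMM scaling placed OVX_E2 0.14 log2 units lower and gave 49 and 205, moving the higher part of these genes from 33.3% to 19.3%. With 5 UMIs added to each sum in place of 1, 106 genes were higher and 76 lower. The balance of higher and lower genes thus depended on these settings. In levels summed over members, fewer expressing cells and less RNA per cell cannot be told apart.

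Cxcl14 was lower in OVX_E2 members, at 661 CPM against 3336, a ratio of 0.200 (0.164 to 0.238), and 0.285 among carriers of Smoc2 or Vtn (949 CPM). A single barcode held 48 of the 121 UMIs in OVX_E2, where 16 of 26 members had any, against 144 of 154 in OVX. It was the barcode of 14616 UMIs that also held most Acta2 UMIs and all those of Krt14 and Krt17, and without it Cxcl14 was at 434 CPM in OVX_E2 members and the ratio was 0.132, and carriers were at 616 CPM (473 to 788). The same gene had ratios of 0.369 in S1, 0.358 in S3, 0.366 in S4 and 0.153 in fibroblasts of no class. Lpl was at a ratio of 0.638 (0.805 among carriers), against 1.71 in S1 and 0.843 in S3. Col4a1 (0.755, and 0.872 among carriers) and Col4a2 (0.678, and 0.748) were within 2-fold. Fabp4, a fatty acid binding protein, was higher at 1175 CPM against 435, a ratio of 2.71 (2.26 to 3.23), with 3.34 among carriers and 0.849 in S3.

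Mfap4, Fn1, Postn, Mfap2 and Col18a1 were the matrix genes among the 10 highest. Mfap4 stood at 339 CPM in OVX_E2 and 16.1 in OVX, a ratio of 19.7 (11.0 to 44.5), but 27 of its 62 UMIs came from 1 barcode, without which the ratio was 11.6, and among carriers of Smoc2 or Vtn it was 2.41. Fn1 was at 1235 against 171 CPM (ratio 7.21, 5.76 to 9.12; 2.44 among carriers) and Postn at 3492 against 660 (5.29, 4.69 to 5.99; 2.38 among carriers). Mfap2, a microfibril protein, had a ratio of 3.80 and 2.60 among carriers, and Col18a1 4.86 and 2.14. Among carriers these ratios were thus smaller but still above 2, and the lists of matrix genes, given below, did not lean to the higher side. No intervals are given for the ratios among carriers. Those of Mfap4 and Col18a1 rest on few UMIs, since all OVX members together had 11 UMIs of Mfap4 and 26 of Col18a1.

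The other higher genes were of several kinds. Mdk, the heparin-binding growth factor midkine, was at 443 against 55.4 CPM (ratio 7.87, 5.37 to 12.1; 5.49 among carriers), and its ratio was 5.30 in S3, 2.36 in S1, 4.96 in fibroblasts of no class and 1.39 (0.98 to 2.03) in S4. With an S2 sum of at least 5 the ratio of Mdk in members was 4.47. Cdkn1c, the cell cycle inhibitor p57, had a ratio of 4.73, and 1.77 among carriers. Csrp1 and Cotl1, which bind actin-based structures, had ratios of 4.82 and 4.43, and 3.72 and 4.03 among carriers. With members chosen at 3000 UMIs per barcode the ratios of Mfap4, Csrp1, Cdkn1c and Col18a1 were 61.9, 2.08, 2.97 and 2.85. Acta2, smooth muscle actin, had a ratio of 13.8 that rested on 1 barcode with 44 of its 47 UMIs, and without it the ratio was 1.25, while among carriers, who include that barcode, it was 20.9. That barcode also held 31 of 31 Krt14 and 16 of 16 Krt17 UMIs, basal keratins, and 14616 UMIs in all, 2.19 times the median fibroblast.

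Klf2, a transcription factor best known in vessels, was the lowest of the named genes. It was at 98.4 CPM in OVX_E2, in 5 of 26 members, against 1272 in OVX, in 80 of 154, a ratio of 0.0815 (0.0456 to 0.123), 0.126 among carriers and 0.153 with members chosen at 3000 UMIs per barcode. In the other classes the ratio was 0.609 in S1, 0.245 in S3, 0.419 in S4 and 0.501 in fibroblasts of no class. Per cell the OVX median was 1.83 per 10000 UMIs and the highest value 166, and the medians of the other libraries were 0.

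Several further low genes were at or near 0 in OVX_E2. Igfbp3, an IGF carrier, had 1 UMI against 75 (ratio 0.0986, 0.00125 to 0.287), and Cxcl13, a B cell chemokine, 1 against 67 (0.110, 0.00139 to 0.322). Podn, a small leucine-rich proteoglycan, had 5 against 161 UMIs, a ratio of 0.139. Arhgap24, Gbp2, Thsd7a, Hspa1b and Tmbim1 had ratios of 0.139, 0.147, 0.147, 0.191 and 0.195, with 1 to 7 UMIs in OVX_E2. Among carriers the ratios were 0.163 for Igfbp3, 0.173 for Cxcl13, 0.214 for Podn and 0.113 to 0.301 for the other 5. With members chosen at 3000 UMIs per barcode the ratios were 0.253 for Igfbp3, Podn and Arhgap24, 0.288 for Thsd7a and 0.55 for Tmbim1, which was then within 2-fold. The same ratio in S3 fibroblasts was 0.080 for Igfbp3, 0.293 for Podn and 0.780 for Gbp2.

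The dissociation and immediate early list was lower as a group. Of its 20 kept genes 12 were lower, among them Fos, Jun, Egr1, Hspa1a, Zfp36 and Socs3, and 1, Ier3, was higher, with a median log2 ratio of -1.13 against 0.06 for all genes. These genes respond to tissue handling, and their part in the other differences was not tested. Fos was at 2623 CPM against 6628, a ratio of 0.397 in members, with 1.14 in S1 and 0.620 in S3. Of 8 progesterone and glucocorticoid response genes Tsc22d3, Mt1 and Mt2 were lower and Cdkn1c higher.

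The counts in the other lists stand beside 3.68% higher and 7.35% lower over all genes kept and the same median of 0.06. Of 23 fibrillar and associated genes 3 were higher (Fn1, Postn and Mfap4) and 4 lower (Bgn, Ogn, Fbln1 and Tnxb), with a median log2 ratio of -0.26. Of 12 basement membrane genes Col18a1 was higher and Lamc1 lower (median -0.52). The 16 lipid genes, with a median of -0.66, included Fabp4, which was higher, and Gsn, which was lower. The 15 chemokine and complement genes included Ccl8, which was higher, and Serping1, Cxcl1, Cxcl13, Cxcl14 and C3, which were lower. Sfrp1 and Sfrp2, secreted Wnt modulators, were higher and Fgf7, an epithelial growth factor, lower among 7 growth factor genes. The 19 protease genes included Timp1 and Mmp14, which were higher, and Plau, which was lower, and Gbp2, Ifi27l2a and H2-D1 were lower among 6 interferon genes.

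Of the remaining lists, Hmox1 was higher and Srxn1 lower among 9 AhR and xenobiotic genes, F3 and Igfbp3 were lower among 5 Inmt-type genes, Igfbp3 was lower among 5 IGF binding proteins, and none of 9 adventitial-type genes passed. Esr1, the estrogen receptor, had 26, 4, 5, 7 and 4 UMIs in members of the 5 libraries, and Pgr, the progesterone receptor, 1, 0, 1, 2 and 1. At this depth no difference in either receptor was detectable.

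**Figure D5:**
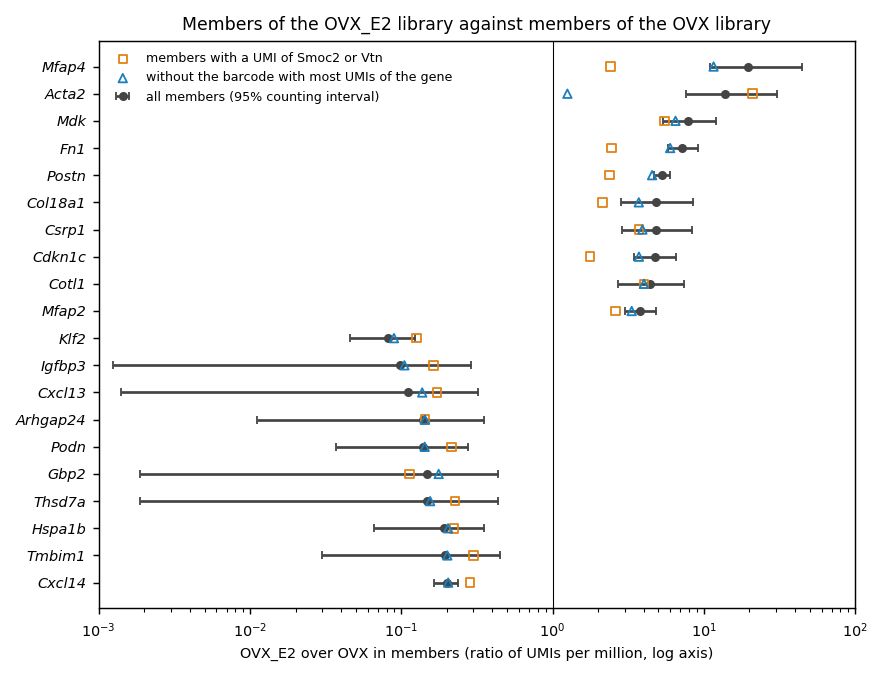
Ratio of OVX_E2 to OVX members on a log axis for the 10 highest and 10 lowest named genes, with 95% intervals, the ratio without the barcode that held most of the gene's UMIs and the ratio among carriers of Smoc2 or Vtn. Acta2 goes from 13.8 to 1.25 without 1 barcode, and Klf2 is lowest at 0.0815.

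Progesterone was compared with estradiol alone in OVX_E2_P4 and OVX_E2, over 1002 genes in 33 and 26 members. In OVX_E2_P4 10 genes (0.998%) were at least 2-fold higher and 22 (2.2%) at least 2-fold lower. Cebpb, a transcription factor of early adipocyte formation, was at 639 CPM against 246, a ratio of 2.56 (1.84 to 3.73), and stood higher in the other classes too, with 3.83 in S1, 3.58 in S3, 2.45 in S4 and 2.62 in fibroblasts of no class. Cthrc1, a collagen triple helix repeat protein, was at 375 against 126 CPM (ratio 2.90, 1.85 to 4.99). Lama4, a laminin chain (2.74), Mgp, an inhibitor of calcification (2.68), Sfrp2 (2.47), Col14a1 (2.44) and Eln, elastin (2.29), were the other matrix or signalling genes, and Hmgn2, 2810428I15Rik and Ndufa13 followed at 2.21, 2.16 and 2.13. Without the barcode that held most of their UMIs the ratios of Sfrp2, Col14a1, Eln and Hmgn2 were 1.63, 1.53, 1.37 and 1.43, under 2-fold, and those of the other 6 higher genes stayed above it. With members chosen at 3000 UMIs per barcode the ratios of Mgp, Sfrp2 and Eln turned to 0.837, 0.813 and 0.613, and those of Cthrc1 (1.32), Lama4 (1.28), Hmgn2 (1.94), 2810428I15Rik (1.17) and Ndufa13 (1.55) fell within 2-fold. Cebpb and Col14a1 were the 2 of these 10 genes past 2-fold under that setting. Among carriers of Smoc2 or Vtn the ratios of Sfrp2 (7.39), Col14a1 (6.48) and Cebpb (3.86) were larger, while Eln (1.69) and Ndufa13 (1.996) were within 2-fold.

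Several of the lower genes also rested on single barcodes. Fabp4 was at 439 CPM against 1175, a ratio of 0.376 (0.289 to 0.480), and Id3, an inhibitor of helix-loop-helix factors, at 536 against 1410 (0.382, 0.301 to 0.477). Socs3, an inhibitor of cytokine signalling, had a ratio of 0.405, Ugdh 0.310 and Adamts4, a matrix protease, 0.399. Acta2 (0.223), Myl9 (0.277), Ccl2 (0.283) and Ccl7 (0.399), contractile genes and monocyte chemokines, had most of their OVX_E2 UMIs in 1 barcode each, and without it the ratios were 2.46, 0.638, 0.803 and 2.94. Apoe, a lipid carrier, was at a ratio of 0.469, and 0.844 without 1 barcode with 80 of its 170 OVX_E2 UMIs. At 3000 UMIs per barcode Ugdh was at 0.655. Cxcl14, at 580 against 661 CPM, Col4a1, at 1384 against 1044, and Lpl, at 2886 against 3782, stayed within 2-fold. Among lists, Lama4 of 10 basement membrane genes and Eln and Col14a1 of 22 fibrillar genes were higher, the last pair resting on 1 barcode each as given above, and Atf3 and Socs3 of 19 dissociation genes and Sgk1 of 7 progesterone and glucocorticoid response genes lower.

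PBDEs under estradiol were compared in OVX_E2_PBDE and OVX_E2 over 1066 genes in 35 and 26 members. In OVX_E2_PBDE 10 genes (0.938%) were at least 2-fold higher and 8 (0.75%) at least 2-fold lower. C3, the central complement protein, was at 318 CPM against 76.5, a ratio of 3.93 (2.32 to 7.97), and 2.40 with an S2 sum of at least 5, while the ratio was 0.939 in S1 and 1.67 in S3. Cebpb was at 892 against 246 CPM (3.57, 2.62 to 5.13), with ratios of 3.01 in S1, 3.16 in S3, 1.88 (1.42 to 2.61) in S4 and 2.61 in fibroblasts of no class, so it stood higher in every class, though under 2-fold in S4. This comparison and the one with progesterone share the OVX_E2 library, in which Cebpb was low in members. Ptx3, a soluble pattern recognition protein, had a ratio of 2.79, but 111 of 171 UMIs lay in 1 barcode and without it the ratio was 1.02.

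The other higher genes were Gas6, a ligand of TAM receptors (2.75, and 1.88 without its top barcode), Pfdn1 (2.65), Ifi27l2a (2.34, and 1.93), Ace, the angiotensin-converting enzyme (2.27), Hspa1a, a heat shock protein (2.20, and 1.91 without its top barcode), and Lsm7 (2.19). Lower genes included Myl9 (0.336, and 0.773 without its top barcode), Actb (0.380), Slc39a1 (0.387), Prdx6 (0.428), Fabp4 (0.435, 0.343 to 0.545), Bicc1 (0.440) and Kdm6b (0.466, and 0.617 without its top barcode). With members chosen at 3000 UMIs per barcode Gas6 (1.21), Pfdn1 (1.79), Ace (1.53), Myl9 (0.836) and Prdx6 (0.615) were within 2-fold, and Kdm6b turned direction. Slc39a1 (0.648) and Bicc1 (0.543) were within 2-fold with an S2 sum of at least 5, and Lsm7 was among carriers (1.35). Cxcl14 (0.868, and 1.32 without its top barcode), Lpl (0.897), Col4a1 (1.26) and Col4a2 (1.58) were within 2-fold. No basement membrane, fibrillar, growth factor or protease gene passed, of 9, 22, 6 and 16 kept, and no AhR or xenobiotic gene of 4. Cyp1a1, the classical AhR target, was at 0 in members of all 5 libraries, which allows up to 3 UMIs in each, and Cyp1b1, a related enzyme of fibroblasts, was at 115, 71.0, 87.0, 39.0 and 46.9 CPM.

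PBDEs under both hormones were compared in OVX_E2_P4_PBDE and OVX_E2_P4 over 656 genes, in 10 and 33 members. In OVX_E2_P4_PBDE 25 genes (3.81%) were at least 2-fold higher and 23 (3.51%) at least 2-fold lower, and TMM scaling, which moved it by -0.39 log2 units, gave 9 and 75, taking the higher part from 52.1% to 10.7%. The balance of higher and lower genes therefore depended on the scaling. Ccl2 (16.3), Ccl7 (6.51), Cxcl1 (5.86) and Ptx3 (4.81) led, all of them inflammatory genes, but 1 barcode of 4180 UMIs held 40 of 43, 42 of 45, 64 of 83 and 17 of 29 of their UMIs. Without the top barcode their ratios were 1.64, 0.627, 1.55 and 2.31.

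Fabp4 was at 1665 CPM against 439, a ratio of 3.81 (2.74 to 5.24), and 2.97 without the top barcode. Another barcode, the one of 4331 UMIs with most Lpl, held 19 of the 71 Fabp4 UMIs and all 9 UMIs of the adipocyte marker Car3, and without it Fabp4 was at 1357 CPM (1014 to 1780). Adipocyte markers summed to 211 CPM in these members against 14.6 in OVX_E2_P4. Id3 had a ratio of 3.29, Thbs1, the matrix protein thrombospondin, 3.72, and Atf3 and Nr4a1, immediate early genes, 3.54 and 2.94, the latter 1.92 without its top barcode and 0.402 with an S2 sum of at least 5. The metallothioneins Mt1 and Mt2 had ratios of 2.39 and 2.57. On the lower side Sfrp2 had 1 UMI against 121 (ratio 0.0789, 0.000998 to 0.226), Meg3, a non-coding RNA, 2 against 139 (0.103) and Mfap4 1 against 69 (0.137). Hspa1a had 0 against 58 UMIs, which would be 4.02-fold lower if 3 UMIs were allowed, and the interval of its ratio reached 0.316. With members chosen at 3000 UMIs per barcode the lower call did not hold for Hspa1a (1.02), Eln (1.11), Sfrp2 (0.831), Meg3 (0.715), Mfap4 (0.58) or Fbln2 (0.538), nor the higher one for Atf3 (1.45). With an S2 sum of at least 5 Thbs1 (1.45), Atf3 (1.26) and Cthrc1 (0.579) were within 2-fold. That setting left out 7 of the 10 OVX_E2_P4_PBDE members. Eln (0.235), Cthrc1 (0.308), Eif3i (0.338), Fbln2 (0.339), Plac8 (0.364) and Mif (0.376) had 3 or 4 UMIs in OVX_E2_P4_PBDE.

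Of 22 fibrillar genes 6 were lower (Col5a1, Col5a2, Col14a1, Eln, Fbln2 and Mfap4) and Thbs1 was higher, beside 3.51% lower and 3.81% higher over all genes, with a median log2 ratio of -0.43. With TMM scaling 75 of all 656 genes were lower. The OVX_E2_P4_PBDE members had 6, 19, 4, 3, 4 and 1 UMIs of these 6 genes. None of 6 basement membrane genes passed, and Col4a1 had a ratio of 0.928. Cxcl14 had a ratio of 1.28, and 0.935 without its top barcode, and Lpl 0.803. Fabp4 thus had a ratio of 0.435 with PBDEs under estradiol and 3.81 under both hormones, and its levels in members were 435, 1175, 509, 439 and 1665 CPM, high with estradiol alone and with all agents combined. In OVX_E2_P4 members 1 barcode held 33 of its 90 UMIs. With PBDEs under estradiol its ratio in the other fibroblasts was 1.86 in S1, 1.08 in S3, 0.0886 in S4 and 0.834 in those of no class.

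Markers of other cell types were mostly low in members but not equally so across libraries. Basal markers in OVX_E2 members, at 530 CPM against 444 in barcodes that were not fibroblasts, and endothelial markers in OVX_E2_P4_PBDE members, at 93.8 against 80.1 from 4 UMIs, were not below that level. The same held in OVX_E2 for T and NK markers, at 21.9 against 18.3 CPM from 4 UMIs, and Schwann markers, at 65.6 against 63.8 from 12. Most basal UMIs of OVX_E2 members lay in the barcode of 14616 UMIs, with 44 of 47 for Acta2, 31 of 31 for Krt14 and 16 of 16 for Krt17. Of 8 endothelial markers 3, 1, 2, 1 and 3 were seen, with 3, 1, 2, 1 and 4 UMIs in all, and Cldn5 and Tie1 were at 0 throughout. Of 8 pericyte markers Des and Kcnj8 were at 0 in all libraries, and the sum was 89.0, 344, 60.9, 97.5 and 70.3 CPM, led by Acta2 in OVX_E2. The mesothelial markers Msln, Upk3b and Lrrn4 were at 0 in all 5.

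Adipocyte markers summed to 0, 0, 2, 3 and 9 UMIs, the last being Car3 in 1 barcode, and stood at 0.354 to 1.09 CPM outside the fibroblasts. In members of OVX_E2_PBDE, OVX_E2_P4 and OVX_E2_P4_PBDE they were above that level, at 8.70, 14.6 and 211 CPM against 0.594, 0.647 and 0.354. Basal epithelial markers summed to 32.1, 530, 8.70, 73.1 and 23.4 CPM, and luminal markers to 84.6, 268, 205, 439 and 258, with Krt8 highest in each library. Luminal hormone-sensing (L-Hor) markers summed to 74.4, 148, 178, 249 and 328 CPM, and luminal alveolar (L-Alv) markers to 330, 104, 126, 180 and 93.8. The luminal and L-Hor sums were higher under hormones. The L-Alv sum was highest in OVX through Trf alone, at 302 CPM there, and the other L-Alv markers summed to 27.7, 38.3, 69.6, 146 and 70.3 CPM. For the luminal markers other fibroblasts had 153, 308, 282, 501 and 394 CPM. Macrophage markers summed to 46.9 to 62.7 CPM in members, and Adgre1 was at 0 in all. Their part in the comparisons between libraries was not tested.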

How the data were processed

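Single-cell RNA was measured with the 10x Genomics 3′ v2 kit in 5 mammary gland libraries, 1 per group. The deposited matrices hold UMI counts per gene and barcode, which the authors made with Cell Ranger 2.0.0 and mm10 according to the submitters' processing notes, over 27998 genes. Library totals were 20293934 UMIs for OVX, 29590862 for OVX_E2, 42012988 for OVX_E2_PBDE, 32648416 for OVX_E2_P4 and 19982067 for OVX_E2_P4_PBDE.

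Members and gene lists were chosen with earlier results of these data known. No doublet caller was run. Counts were summed over members and divided by their total. Genes with at least 50 UMIs over both sums were kept, 1 UMI was added to each sum, and a ratio of at least 2 or at most 0.5 was counted. With 1 library per group there was no test. Intervals are exact at 95% (Poisson for levels, Clopper-Pearson for shares, conditional binomial for ratios), and a count of 0 allows up to 3 UMIs. Named genes were the 15 highest and 15 lowest in 5 of 5 libraries for the contrast with S1, S3 and S4, and up to 10 highest and 10 lowest past 2-fold in each of 4 comparisons. Ribosomal protein and mitochondrial genes were left out of both. The 4 comparisons also left out genes whose level in members was under 0.5 of that in non-fibroblast barcodes, in the library where the gene was higher. No such limit was set for the contrast. Python 3.11.15, numpy 2.4.6, scipy 1.17.1, pandas 2.3.3 and edgeR 4.0.16 (TMM factors only) were used, and the code was tested on simulated data. Gene positions are from GENCODE M21 and promoters from RefSeq (GRCm38.p6). Some genes of the lists and of the named-gene rule are not reported here.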

Additional observations from a re-analysis of the deposited data

Results flagged for a closer look

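Barcodes that met every condition for members except the limit on Epcam and Krt18 came to 35 for OVX_E2_P4, 6 for OVX_E2_P4_PBDE, 2 for OVX_E2_PBDE and 1 for OVX_E2, against 3 for OVX, and they entered the comparisons only where that limit was left out. In OVX_E2_P4 they outnumbered the 33 members.

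The ratio of Fabp4, a fatty acid binding protein, with PBDEs was 0.435 under estradiol and 3.81 under estradiol and progesterone. The ratio of Hspa1a, a heat shock protein, was 2.20 under estradiol and 0.0815 under both hormones, the latter from 0 UMIs against 58 with 1 UMI added to each sum, and with members chosen at 3000 UMIs per barcode it was 1.02. In both genes the intervals lay on opposite sides of 1, and the difference between the hormone settings was not tested.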

How the results depend on the processing

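With 1 library per group no setting was tested, and 10 members in OVX_E2_P4_PBDE limit every value of that library. No paired analysis was possible because each group had 1 library. The alternatives without the Epcam and Krt18 limit, with carriers of Smoc2 or Vtn only and without the top barcode of a gene, or 1 named barcode, were chosen after seeing the data. The cause of the shifts below was not tested unless the setting itself shows it (fewer or more genes kept, fewer members).

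Shares of members moved past their interval when S2 had to be 3 times the other sums, to 4.51% in OVX, 2.00% in OVX_E2, 1.28% in OVX_E2_PBDE and 3.97% in OVX_E2_P4. Counting carriers only gave 2.13% in OVX_E2 and 1.34% in OVX_E2_PBDE. An S2 sum of at least 5 gave 0.451% in OVX_E2_P4_PBDE, where it left out 7 of the 10 members.

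Counts of genes past 2-fold moved with the minimum of UMIs, which also set how many genes were kept. For OVX_E2 against OVX the higher and lower shares were 3.22% and 7.46% of 590 genes with at least 200 UMIs, near the reported 3.68% and 7.35%, and 10.2% and 8.41% of 6851 genes with at least 10. For OVX_E2 against OVX 19 were higher and 44 lower with at least 200 UMIs, and 696 and 576 with at least 10. With TMM factors 49 were higher and 205 lower, and with 5 UMIs added 106 were higher and 76 lower. For OVX_E2_P4 against OVX_E2 0 were higher and 3 lower with at least 200 UMIs, 256 and 276 with at least 10, 25 higher without the Epcam and Krt18 limit and 14 lower with members chosen at 3000 UMIs. For OVX_E2_PBDE against OVX_E2 2 were higher and 2 lower with at least 200 UMIs, 192 and 299 with at least 10, and 13 lower without the Epcam and Krt18 limit. For OVX_E2_P4_PBDE against OVX_E2_P4 9 were higher and 75 lower with TMM factors, 4 and 1 with at least 200 UMIs, 438 and 229 with at least 10, 39 and 5 with 5 UMIs added, 45 and 40 with an S2 sum of at least 5, 44 and 48 without the Epcam and Krt18 limit, and 16 higher at 3000 UMIs.

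For members against S1, S3 and S4, 14 genes were higher and 137 lower with TMM factors, 75 and 18 with 5 UMIs added, 12 higher with at least 200 UMIs, 177 with at least 10 and 56 without the Epcam and Krt18 limit. Leaving out each library in turn, which can only keep or raise the counts, gave 33 to 59 higher and 67 to 131 lower. The highest counts were without OVX_E2_P4_PBDE, and 53 were higher without OVX.

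Of 776 values of 97 named ratios under 8 settings, 649 stayed within the interval of the reported ratio, 108 moved past it and 19, all of them ratios past 2-fold as reported, turned direction. A further 20 values crossed 1 among ratios that were within 2-fold as reported, for Cxcl14, Apoe, Col4a1 and Col4a2. Of 632 values of the 79 ratios past 2-fold, 83 fell within 2-fold on the same side of 1, and 150 of all 776 differed by over 1.5 times from the reported ratio. With members at 3000 UMIs those that turned were Acta2 in OVX_E2 against OVX (0.828), Mgp (0.837), Sfrp2 (0.813), Eln (0.613), Acta2 (2.93) and Ccl7 (2.79) with progesterone, Kdm6b with PBDEs under estradiol (1.04), and Hspa1a (1.02) and Eln (1.11) with PBDEs under both hormones. Acta2 with progesterone also turned without barcodes over 2 times the median (2.65), without the Epcam and Krt18 limit (1.34) and without its top barcode (2.46), and Ccl7 with an S2 sum of at least 5 (2.68) and without its top barcode (2.94). Apoe with progesterone turned with an S2 sum of at least 5 (1.14) and among carriers (1.04). With PBDEs under both hormones Nr4a1 turned with an S2 sum of at least 5 (0.402), and Ccl7 (0.627) and Gas6 (0.912) without the top barcode.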
